A study of Mus musculus with 6 samples.

Results

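Ependymal and motile cilia genes were examined in bulk-seq of the mouse spinal cord. They were 10 genes chosen by name, Foxj1, Mcidas, Dnah5, Dnah9, Dynlrb2, Hydin, Spag6l, Pifo, Ccdc153 and Tmem212, out of 25576 genes listed in at least 1 library. All 10 were present in some library, and 9 were present in all 6. Where a file did not list a gene, its level counts as 0.

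The series compared spinal cord tissue in 3 libraries labelled SMA (genotype mSmn-/-, hSMN22tg/0) with 3 labelled control (mSmn+/-, hSMN22tg/0). All were of strain FVB at postnatal day 4. SMA mice are a severe model of spinal muscular atrophy, in which motor neurons are lost because SMN protein is scarce. Both groups carried the human SMN2 transgene, and the controls also lacked 1 copy of mouse Smn. The methods give the bulk-seq as triplicates with n = 1 per group and do not say whether the 3 libraries of a group came from separate animals, so p-values measure only the spread between these libraries, which may be technical.

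Motile cilia are hair-like projections built on an axoneme, a ring of microtubule doublets around a central pair. Dynein arms on the doublets slide them against each other, and the central pair and radial spokes control the beat. In the spinal cord they are carried by ependymal cells, which line the central canal and move cerebrospinal fluid. Cells become multiciliated when Mcidas and Gmnc switch on centriole amplification, and Foxj1 and the Rfx factors then switch on the genes of the axoneme.

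Levels are FPKM, which scales fragments to exon length and library size. Values of a group are always given in the order of replicates 1, 2 and 3. Groups were compared in limma on log2(FPKM + 1), for the 17088 genes whose mean reached 0.5 FPKM. Each log2 difference is SMA minus control on that scale, which understates changes at low FPKM. Exact permutation of 3 against 3 libraries has 0.1 as its smallest p.

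The gene targeted in the model, Smn1, stood at 10.4, 8.64 and 11.9 FPKM in the controls against 8.48, 9.30 and 11.1 FPKM in the SMA libraries. The groups overlapped (exact permutation test, p = 0.6), so the values do not check the genotype labels, and groups are named here as libraries labelled SMA or control.

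Control replicate 2 stood apart from the other libraries. A list of 20 hepatocyte genes held 8.84% of its summed FPKM, against 0.0173% to 0.0379% in the other 5 libraries, and its most abundant gene, Alb, was at 15894.5 FPKM there. All 20 were highest in that library. Of 10 erythroid genes, 9 were listed and Ahsp was not, so that it counts as 0. The erythroid list held 4.56% in control replicate 2 against 0.304% to 0.517% elsewhere. The 18 neuron genes held 0.410% there against 0.798% to 0.879% elsewhere. The 10 cilia genes summed to 16.6 FPKM in control replicate 2, against 23.7 and 17.0 FPKM in control replicates 1 and 3 and 19.2, 21.8 and 21.2 FPKM in SMA replicates 1 to 3. Their median level there was 0.883 of the mean of the other 5 libraries over the 8 genes tested, between 0.539 for the neuron list and 0.886 for all genes tested. The part of liver and blood transcripts in the results below was not tested beyond leaving the library out and scaling to the neuron genes. That scaling is described below, and the results on the 10 genes are given with and without control replicate 2.

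**Figure D1:**
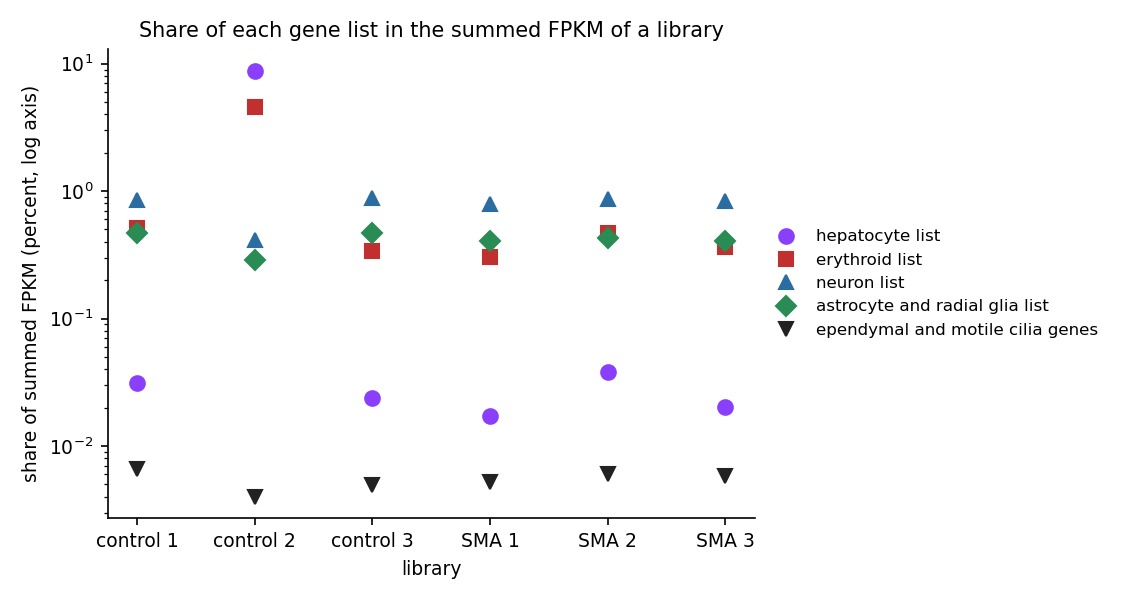
Share of each gene list in the summed FPKM of a library (percent, log axis) for the 6 libraries. Control replicate 2 holds 8.84% hepatocyte and 4.56% erythroid signal and 0.410% neuron signal, and the ependymal and motile cilia genes hold between 0.00401% and 0.00658% in every library.

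The promoters of the genes were read because the Rfx factors, which bind the X-box, and Foxj1, a forkhead factor, act on many axonemal genes. RefSeq promoters (GRCm38.p6, from 250 bases before to 50 after each start) were found for 9 of the 10 genes, with 10 starts, and Foxj1 was not among them. On both strands, 2 palindromic X-box forms were searched. GTNNCNNNNGNNAC was found in 7.17% of all 32851 promoters and GTNNCNNNGNNAC in 6.19%, and either form in 12.8%. The second form was added after the sequences of the genes had been read. The first form was in 3 of the 9 genes, Pifo, Spag6l and Hydin. The second form was in 3 others, Dynlrb2, Tmem212 and Dnah9. Since the second form was chosen from these sequences, no count that includes it can be set against its share of all promoters. Either form was in 6 of the 9 genes. The windows of 30 bases below show it in capitals, 5′ to 3′ on the strand of the gene, with the first base of the match counted from the RefSeq start at 0.
Hydin, first form, from -21: actctgcgGTTGCTGTGGCAACagatggta
Spag6l, first form, from -155: ctgtaggcGTCGCACCAGCCACtctggtgg
Pifo, first form, from -20: gcggttccGTTCCCTTGGCAACgtagtaca
Dynlrb2, second form, from -51: cctgcctgGTTGCCTAGCAACgggggaagc
Dnah9, second form, from -82: ttccaccaGTTTCCCAGCAACaacgacgcg
Tmem212, second form, from -67: cagctacaGTCTCTAAGAAACttgtgttta
In GENCODE M21, the Hydin window (chr8:110266948-110266977, plus strand) ended on the first base of the gene's 5′ UTR and lay in an exon of Gm26832 on the other strand. The Dynlrb2 window (chr8:116504956-116504985, plus strand) ran into the 5′ UTR, and the Pifo window (chr3:106001496-106001525, minus strand) lay at an internal start of that gene and overlapped an exon and a UTR of it. The Spag6l (chr16:16829497-16829526, minus strand) and Tmem212 (chr3:27896414-27896443, minus strand) windows lay upstream of the gene in no annotated transcript. The Dnah9 window (chr11:66168612-66168641, minus strand) lay upstream of the gene, in an intron of Gm12296 on the other strand. Pifo had another match of the first form from -71 and Spag6l from 34. Gene positions given here are from GENCODE M21, and the files give 7 of the 10 genes another span. In the files Dnah9 runs on to 66525964, across its window, Pifo runs on to 106032814, and Hydin starts at 110265248. The files hold no exons, so the transcripts behind the FPKM are not known.

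The other 3 genes with a promoter in the table, Ccdc153, Mcidas and Dnah5, had neither form. Ccdc153 and Mcidas had the half-site GTTGCC, which was in 12.5% of all promoters on either strand and in 6 of the 9 genes, and which lies within some matches of the longer forms.
Ccdc153, half-site, from -152: ctgagttttccaGTTGCCtggacaacgtgc
Mcidas, half-site, from -195: gggggaagccagGTTGCCaggttggttaac
The windows lay upstream of the genes (chr9:44240513-44240542 and chr13:112993661-112993690, plus strand), in no annotated transcript. The forkhead motif TGTTTAC, in 3.65% of all promoters on either strand, was in 0 of the 9 genes, which says only that these letters were not in these windows. These matches describe the sequence and are not measured binding sites.

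Of the regulators, Foxj1 (chr11:116330704-116335399, minus strand), the forkhead factor of motile ciliogenesis, stood at 4.84, 3.93 and 4.08 FPKM in the controls against 5.22, 4.72 and 4.39 FPKM in the SMA libraries. SMA replicate 1 was highest, but control replicate 1 lay above the other SMA libraries, so the groups overlapped. The means were 4.28 ± 0.491 FPKM in control and 4.77 ± 0.418 FPKM in SMA (SD, n = 3 each). On the log2 scale the difference was 0.13 (SE 0.12, Benjamini-Hochberg adjusted p = 0.692 in limma) and 0.08 without control replicate 2. Leaving out each library gave 0.07 (without SMA replicate 1) to 0.20 (without control replicate 1). In whole tissue, a difference in the number of ependymal cells (more or fewer cells) and one in RNA per cell (more or less) cannot be told apart, for this gene and all below.

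Mcidas (chr13:112993845-113000394, plus strand), which starts the multiciliated program, stood at 0.454, 0.0482 and 0.0247 FPKM in the controls against 0.179, 0.0253 and 0.0775 FPKM in the SMA libraries. Control replicate 1 was far above the others, and the remaining control libraries lay among the lowest values. Its low values were near whole multiples of 1 step, 0.0256 FPKM at the depth of SMA replicate 1, namely 2.04, 1.01, 7.01, 1 and 3.03 steps in the other 5 libraries, and 20.5 steps in control replicate 1. If a step is 1 fragment, the value of every library but control replicate 1 rests on 7 fragments or fewer. The mean of 0.135 FPKM was below the minimum for limma, and an exact permutation test gave p = 0.9 (p = 0.7 without control replicate 2).

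No other regulator of the program was called. In the list of 13 multiciliation regulators, which holds Foxj1 and Mcidas, 10 were tested and 0 passed an unadjusted p of 0.05 in either direction, with and without control replicate 2. Gmnc, which acts upstream of Mcidas, stood at 1.36, 0.949 and 1.22 FPKM in the controls against 1.13, 1.43 and 1.36 FPKM in the SMA libraries, with no peak in control replicate 1. Its level was 3.00 times that of Mcidas in control replicate 1 and between 6.32 and 56.7 times in the other libraries. Rfx3, an X-box factor needed for cilia, stood at 16.4, 10.5 and 13.6 FPKM in the controls against 17.2, 17.5 and 15.2 FPKM in the SMA libraries. It had the smallest p of the list's higher genes (log2 difference 0.30, exact permutation test p = 0.2), and its log2 difference was 0.14 without control replicate 2 and -0.00216 with scaling to the neuron genes. Without control replicate 1 it was 0.44, with an unadjusted p under 0.05. Myb, a cell cycle factor that also acts in multiciliated cells, had the smallest p of the lower genes (log2 difference -0.29, and -0.03 without control replicate 2). The most abundant genes of the list were Rfx3, Tfdp1 (13.6 to 17.3 FPKM) and Rfx4 (6.88 to 8.32 FPKM). Foxn4, named after its values were seen, was listed at 0.208 FPKM in control replicate 1, at 0.0434 FPKM in SMA replicate 2 and at 0 elsewhere.

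**Figure D2:**
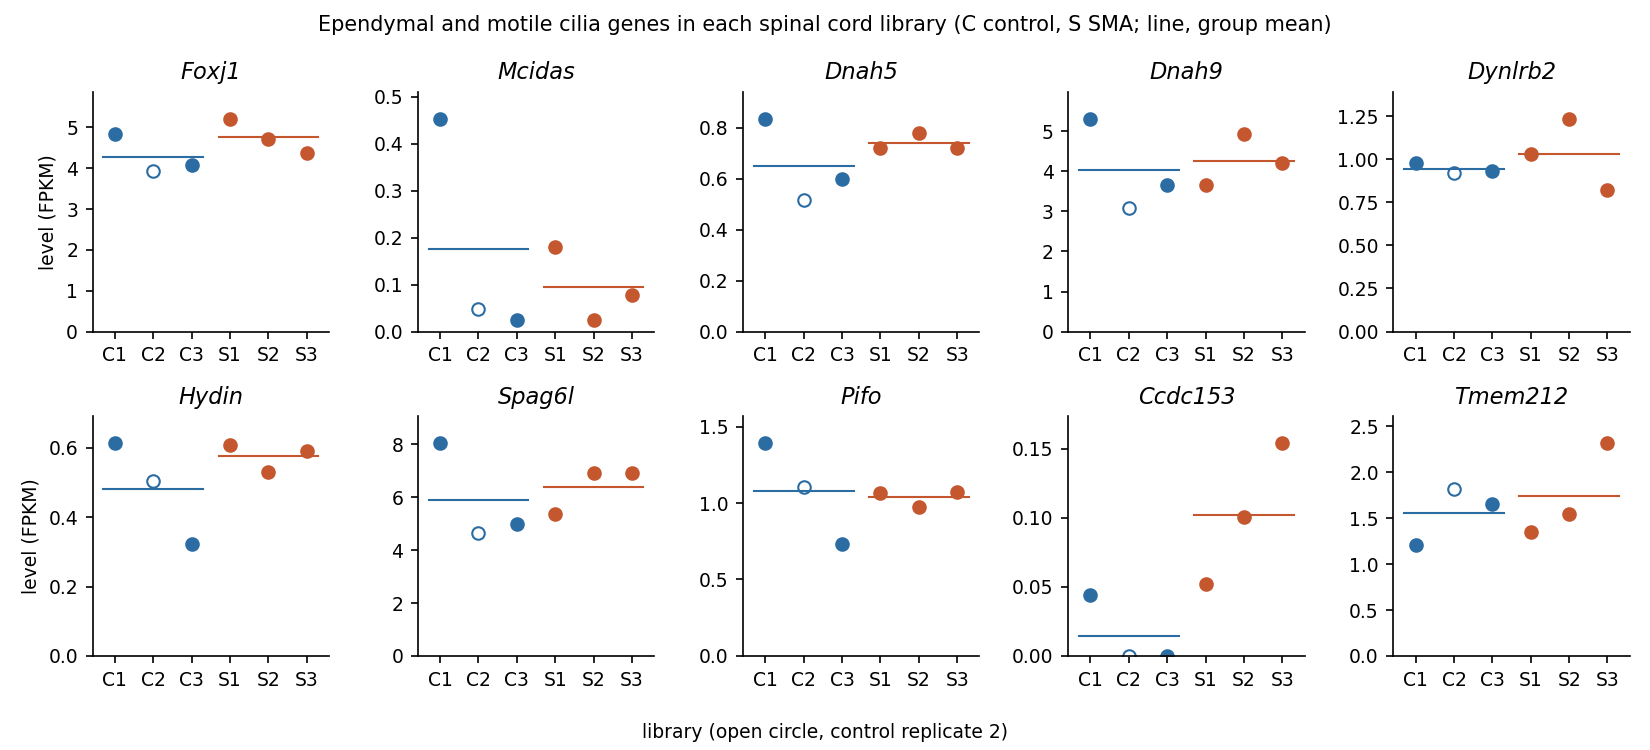
Level (FPKM, linear axes from 0) of each of the 10 genes in control (C1 to C3, blue) and SMA (S1 to S3, orange) libraries, with lines at group means and control replicate 2 as an open circle. Control replicate 1 is highest for 6 of the 10 genes, and Ccdc153 is the gene whose groups do not overlap, at no more than 0.154 FPKM.

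Of the outer dynein arm heavy chains, Dnah5 (chr15:28203752-28472052, plus strand) stood at 0.836, 0.519 and 0.598 FPKM in the controls against 0.721, 0.781 and 0.720 FPKM in the SMA libraries. The SMA libraries lay close together, between control replicate 1 and the lower control libraries. SMA minus control came to a log2 of 0.08 (SE 0.16, Benjamini-Hochberg adjusted p = 0.851 in limma) and 0.02 without control replicate 2.

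Dnah9 (chr11:65831282-66168551, minus strand), the heavy chain that pairs with Dnah5 in the distal part of the axoneme, stood at 5.32, 3.09 and 3.67 FPKM in the controls against 3.66, 4.95 and 4.20 FPKM in the SMA libraries. Control replicate 1 was again highest and control replicate 2 lowest. The log2 difference was 0.08 (SE 0.19, Benjamini-Hochberg adjusted p = 0.866 in limma), and it was -0.05 without control replicate 2. Dnah9 was listed at 5.07 to 6.36 times the FPKM of Dnah5 in each library (mean 5.95 ± 0.476, SD, n = 6), so the order of the pair did not depend on the group. Dnah9 shares 2.80% of its stretches of 50 bases with transcripts of other genes, nearly all with Gm12296, which runs across it on the other strand and was listed at 0.499 to 1.20 FPKM. The sources used here do not say whether counting used the strand, so the fragments of such a pair cannot be told apart.

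Dynlrb2 (chr8:116504974-116515915, plus strand), a dynein light chain of the roadblock type, stood at 0.980, 0.920 and 0.930 FPKM in the controls against 1.03, 1.24 and 0.819 FPKM in the SMA libraries. The control libraries nearly coincided, and the SMA libraries held both the highest and the lowest value. Its log2 difference was 0.06 (SE 0.15, Benjamini-Hochberg adjusted p = 0.892 in limma) and 0.05 without control replicate 2. Its paralog Dynlrb1, which serves cytoplasmic dynein in all cells, was listed at 32.5 to 65.2 times the level of Dynlrb2. No stretch of 50 bases of Dynlrb2 occurred in a transcript of another gene (0 of 552).

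Of the central apparatus genes, Hydin (chr8:110266977-110610253, plus strand), a giant protein of the central pair, stood at 0.614, 0.505 and 0.322 FPKM in the controls against 0.609, 0.530 and 0.591 FPKM in the SMA libraries. Only control replicates 2 and 3 lay below all SMA libraries. On the log2 scale the difference was 0.10 (SE 0.17, Benjamini-Hochberg adjusted p = 0.831 in limma) and 0.11 without control replicate 2. It was 0.02 without control replicate 3 and 0.16 without control replicate 1. Exons of Hydin overlap those of antisense Gm26832, which was listed in none of the 6 libraries.

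Spag6l (chr16:16753016-16829456, minus strand), also of the central pair, had the highest level of the 10 genes in every library. It stood at 8.05, 4.65 and 5.004 FPKM in the controls against 5.36, 6.91 and 6.90 FPKM in the SMA libraries. The SMA libraries fell inside the wide range of the controls. SMA minus control came to a log2 of 0.12 (SE 0.20, Benjamini-Hochberg adjusted p = 0.813 in limma) and -0.00352 without control replicate 2. Its paralog Spag6 was listed only in SMA replicate 2, at 0.138 FPKM. The pair shares 18 of the 4600 stretches of 50 bases in Spag6l transcripts, so few fragments could be split between them.

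Pifo (chr3:105996957-106014646, minus strand), a protein of the ciliary base that acts in cilium disassembly, stood at 1.39, 1.10 and 0.735 FPKM in the controls against 1.07, 0.976 and 1.07 FPKM in the SMA libraries. Both extremes were control libraries. The log2 difference was -0.01 (SE 0.17, Benjamini-Hochberg adjusted p = 0.979 in limma), and 0.000903 without control replicate 2. Antisense Gm42722 lies across Pifo and was listed at 0.628 to 1.35 FPKM. Their exons do not overlap in GENCODE M21.

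Of the genes known mainly as ependymal markers, Tmem212 (chr3:27866066-27896368, minus strand), a membrane protein, stood at 1.21, 1.82 and 1.66 FPKM in the controls against 1.35, 1.54 and 2.32 FPKM in the SMA libraries. It was the only gene of the 10 with its lowest value in control replicate 1. Its log2 difference was 0.09 (SE 0.19, Benjamini-Hochberg adjusted p = 0.859 in limma) and 0.16 without control replicate 2.

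Ccdc153 (chr9:44240676-44247306, plus strand), a coiled-coil protein, stood at 0.0438, 0 and 0 FPKM in the controls against 0.0517, 0.101 and 0.154 FPKM in the SMA libraries. The listed values of the groups did not overlap (exact permutation test, p = 0.1, the smallest possible, and p = 0.2 without control replicate 2). In steps of the smallest value, corrected for depth, the libraries held 1, 0 and 0 steps in control and 1.02, 2.01 and 3.05 in SMA, a total of 7. Control replicate 1 and SMA replicate 1 each held 1 step, and control replicate 1 had a depth of 1.16 relative to SMA replicate 1. The gene was under the minimum for limma. With no minimum it was the 1 gene of 10 at an unadjusted p under 0.05, where 3.45% of 25576 genes were called higher and 1.92% lower (log2 difference 0.12, Benjamini-Hochberg adjusted p = 0.737 in limma). The control libraries in which Ccdc153 was at 0 had Foxj1 at 3.93 and 4.08 FPKM.

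Across the genes, 8 of 10 were tested and Ccdc153 and Mcidas were not. None of the 8 was called by limma. At an adjusted p under 0.05 the count was 0 of 8, where 0.0% of all genes tested were called. At an unadjusted p under 0.05, 0 of 8 were lower and 0 of 8 higher, against 2.39% and 3.4% of all genes, and with a fold over 2 as well the count was 0 against 0.17%. The groups did not overlap for 0 of 8 in either direction, against 6.67% of all genes lower in SMA and 10.3% higher. Without control replicate 2 each of these counts was again 0 of 8. The background there was 0.0121% at an adjusted p under 0.05, 5.2% lower and 5.27% higher at an unadjusted p, 0.139% with a fold over 2, and 13.9% lower and 14.2% higher without overlap. With scaling to the neuron genes, which is described below, the counts were again 0 of 8. The background there leaned to lower values, with 0.0% at an adjusted p under 0.05, 1.97% lower and 0.133% higher at an unadjusted p, 0.215% with a fold over 2, and 15% lower and 0.87% higher without overlap. With only 8 genes, a count of 0 says little beside shares of this size, and it was not tested against them.

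The 95% intervals depend on the scaling. As deposited, over the 8 genes tested they ran from -0.43 at the lowest (Pifo) to 0.61 at the highest (Spag6l). A fold of 2 in FPKM + 1 thus lay outside every interval. At levels under 1 FPKM, as for Hydin, a fold of 2 in FPKM itself is a smaller step on this scale and may lie inside. With a pseudocount of 0.1 the log2 difference of Hydin was 0.25. The narrowest was that of Foxj1, from -0.16 to 0.42, or 0.896 to 1.34 as a fold. With scaling to the neuron genes the intervals ran from -0.85 to 0.57 (both Tmem212), a fold of 2 again lay outside each, and that of Foxj1 was -0.69 to 0.41. The log2 differences themselves were above 0 for 7 of 8 genes with a median of 0.09, beside a median of 0.04 over all genes tested, and with scaling to the neuron genes they were below 0 for all 8.

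That scaling divided each library by a single factor, the median ratio over the 18 neuron genes, and so moved the whole scale. It assumes an equal neuron signal in all libraries, in a model in which motor neurons are lost, and this was not tested. The factor was 0.597 in control replicate 2 and 1.06 to 1.15 in the other libraries. The neuron genes were low in control replicate 2. Only their median was evened out, so single neuron genes could still differ between libraries. The median over all genes tested was then -0.23 and that of the 8 cilia genes -0.14, from -0.03 (Hydin) to -0.20 (Pifo), so that relative to all genes the cilia genes lay 0.09 higher, where they lay 0.04 higher as deposited. As deposited this distance was 0.0963 without control replicate 1 and -0.0170 without control replicate 3, so its direction turns on control replicate 3. With this scaling control replicate 2 had the highest Foxj1 level of all, 6.57 FPKM, against 3.74 to 4.91 FPKM in the other libraries. It was then highest for 8 of the 10 genes, all but Mcidas and Ccdc153. Without that library the cilia median was 0.04 and that of all genes 0.00163. With the scaling and without that library the cilia median was 0.00944 over the 7 genes then tested, Hydin falling under the minimum, and 4 of the 7 were above 0.

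**Figure D3:**
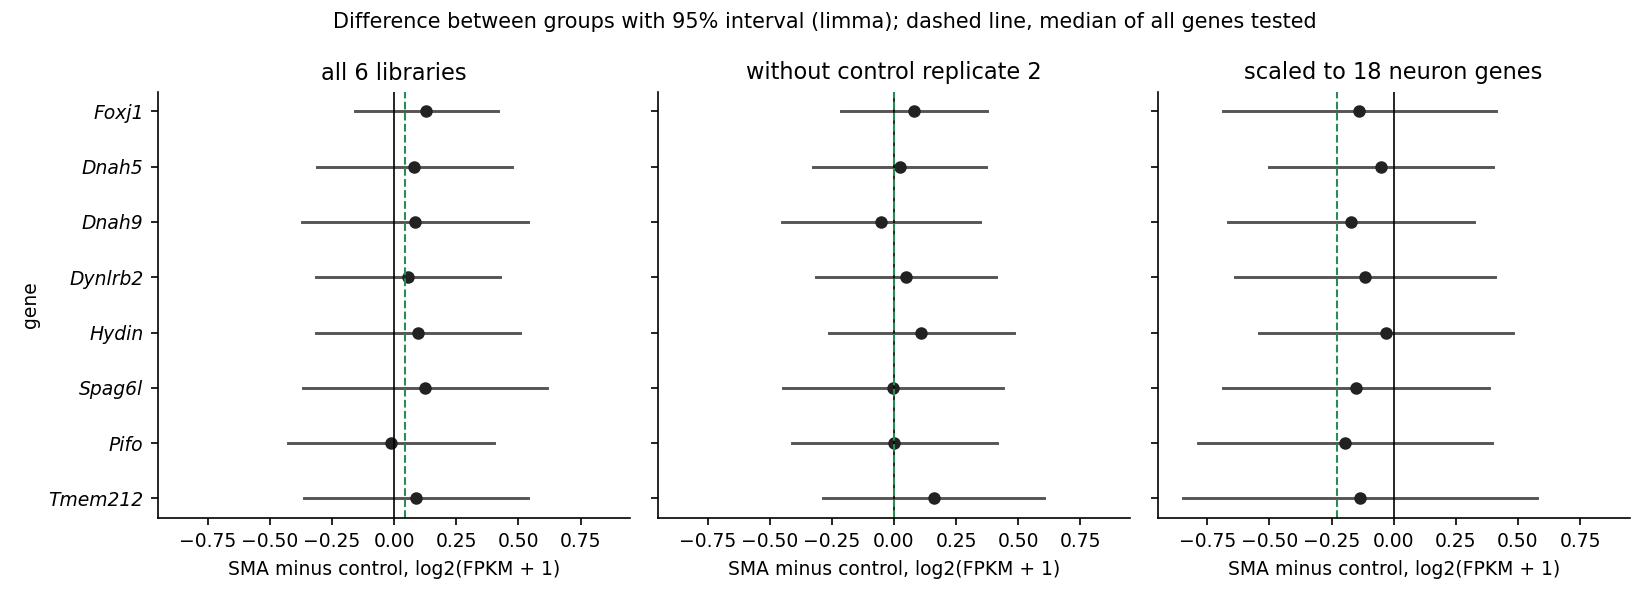
SMA minus control on log2(FPKM + 1) with 95% intervals from limma for the 8 genes tested, in all 6 libraries, without control replicate 2, and with scaling to 18 neuron genes. The dashed line is the median of all genes tested (0.04, 0.00163 and -0.23), and every interval includes 0.

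Except for Dynlrb2 and Ccdc153, the range of the control libraries was wider than the distance between the group means. As deposited, control replicate 1 was highest of the 6 libraries for 6 of the 10 genes, Mcidas, Dnah5, Dnah9, Spag6l, Pifo and Hydin. With scaling to the neuron genes it was highest for 1, Mcidas, and among the 5 libraries other than control replicate 2 it was highest for 5. As deposited, control replicate 2 or 3 was lowest for 8, Ccdc153 being at 0 in both. Among the 8 genes tested and leaving control replicate 2 out, control replicate 1 was highest for 5 (62.5%) and control replicate 3 lowest for 5 (62.5%), where over all genes tested these shares were 26.7% and 26.4%. Control replicate 1 exceeded control replicate 3 for 7 of the 8, with a median ratio of 1.43, against 52.3% of all genes and a median ratio of 1.01. These are counts over genes of the same libraries, and no test was made of them.

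Most genes of the axoneme outside the 10 were also higher in control replicate 1 than in control replicate 3. In 5 lists of outer arm, inner arm, central apparatus, assembly and doublet genes, 64 genes other than the 10 were tested. Control replicate 1 exceeded control replicate 3 for 47 of them (73.4%), with a median ratio of 1.25, and in the inner arm list for 8 of 14 (57.1%). Nme5 of the radial spoke stood at 4.89, 1.30 and 0.965 FPKM in the controls and at 2.46 to 3.25 FPKM in the SMA libraries. Cfap221 of the central pair stood at 1.11, 0.207 and 0.0785 FPKM in the controls and at 0.101 to 0.244 FPKM in the SMA libraries. Both genes were named after their values were seen. Control replicate 1 was also above control replicate 3 for 9 of 10 multiciliation regulators, 16 of 19 other ependymal markers and 6 of 6 paralogs. These lists overlap. Gmnc is in each of them, Foxj1 is among the regulators, and Dnah11 is both a paralog and an outer arm gene. The intraflagellar transport list lay nearer to all genes, with 18 of 29 (62.1%) and a median ratio of 1.03, and the floor plate list held 3 of 6. The centriole amplification list went the other way, with 3 of 8 genes (37.5%) and a median ratio of 0.846, as did the oligodendrocyte list, with 1 of 10 and a median ratio of 0.824. In control replicate 1, 9 of 9 erythroid genes also exceeded control replicate 3, with a median ratio of 1.77, as did 18 of 20 hepatocyte genes (1.46), 10 of 12 astrocyte and radial glia genes (1.11), 6 of 7 genes of neurons that contact the cerebrospinal fluid (1.20) and 10 of 18 neuron genes (1.01). The part of blood and liver transcripts in this order of libraries was not tested.

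**Figure D4:**
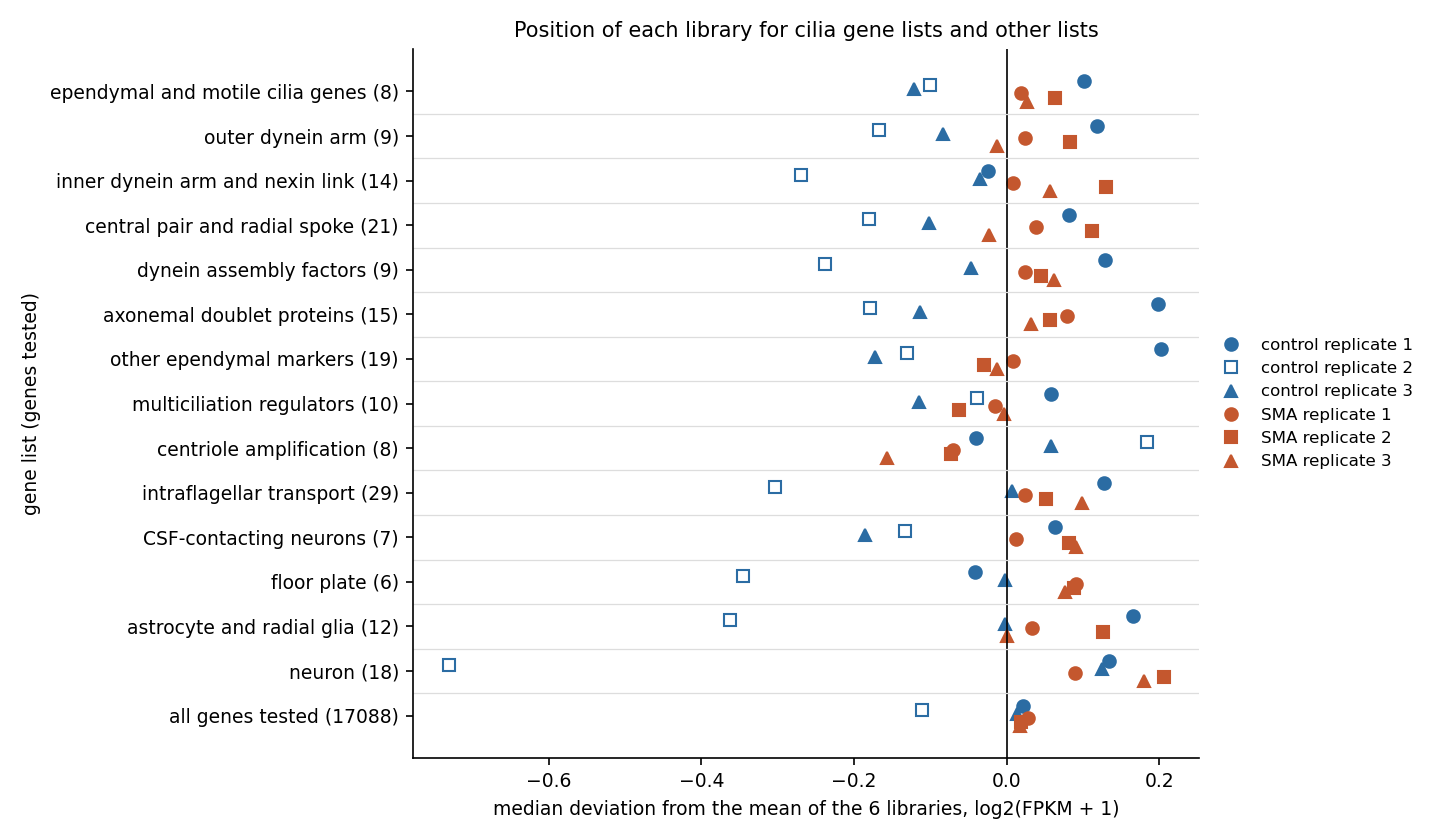
Median deviation of each library from the mean of the 6 libraries, in log2(FPKM + 1), for cilia gene lists, other lists and all genes tested (number of genes in brackets). For the ependymal and motile cilia genes control replicate 1 lies at 0.10, control replicates 2 and 3 at -0.10 and -0.12, and the SMA libraries between 0.02 and 0.06.

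The same lists were compared between groups, where an unadjusted p under 0.05 called 2.39% of all genes lower and 3.4% of them higher, or 5.2% and 5.27% without control replicate 2. In the outer arm list, 9 of 12 genes were tested and 0 were called at an unadjusted p under 0.05. Its most abundant genes were Dnal1 (10.49 to 14.7 FPKM), Dnah9 and Dnaic1. The smallest p of the higher genes was that of Ccdc114, a docking factor of the arm (log2 difference 0.18, and 0.12 without control replicate 2), and of the lower genes that of Dnaic1 (-0.71, and 0.13 without control replicate 2). In the list of inner arm and nexin link genes, 14 of 20 were tested, 0 were lower and 2 were higher, Gas8 and Dnah2, the latter named after its values were seen. Gas8, a nexin link protein, stood at 2.86, 2.22 and 3.54 FPKM in the controls against 4.20, 3.65 and 4.36 FPKM in the SMA libraries, and its groups did not overlap (log2 difference 0.40, Benjamini-Hochberg adjusted p = 0.683 in limma). Dnah2, an inner arm heavy chain, stood at 2.13, 1.46 and 1.74 FPKM in the controls against 2.02, 3.30 and 3.10 FPKM in the SMA libraries, and its groups overlapped (log2 difference 0.45, Benjamini-Hochberg adjusted p = 0.683 in limma). Neither had an unadjusted p under 0.05 without control replicate 2, where their log2 differences were 0.27 and 0.36. With scaling to the neuron genes the log2 differences were 0.15 and 0.22. Dnali1 had the smallest p of the lower genes (-0.11, and -0.12 without control replicate 2), and Ccdc39 (9.57 to 14.0 FPKM) and Dnah7b (2.54 to 5.26 FPKM) were the most abundant beside Gas8. In the central pair and radial spoke list, 21 of 23 genes were tested and 0 were called, Rsph1 having the smallest p of the higher genes (log2 difference 0.46) and Rsph3a of the lower (-0.09). Without control replicate 2 these were 0.40 and -0.20. Without control replicate 1 Rsph1 was at 0.69 and called higher. Rsph9 (3.00 to 9.19 FPKM), Spag6l and Cfap54 (4.60 to 6.41 FPKM) were its most abundant genes.

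Of 12 dynein assembly factors, 9 were tested and 0 were called, and without control replicate 2 only Dnaaf3 was called higher (log2 difference 0.43). The smallest p in the 6 libraries were those of Dnaaf2 (0.23, and 0.25 without control replicate 2) among the higher and Ruvbl1 (-0.07, and -0.15) among the lower genes, and Ruvbl1, Ruvbl2 and Spag1 were the most abundant. Of 20 doublet proteins, 15 were tested and 0 were called with or without that library. In the 6 libraries 1700007K13Rik (0.43) and Tekt1 (-0.16) had the smallest p in each direction, and without control replicate 2 their values were 0.33 and -0.09. The former was at 0.66 and called higher without control replicate 3. Of 12 centriole amplification genes, 8 were tested and 0 were called. Sass6, a cartwheel protein of new centrioles, had the smallest p of the lower genes there, at 3.18, 3.88 and 3.05 FPKM in the controls against 2.86, 2.58 and 2.12 FPKM in the SMA libraries (log2 difference -0.31, exact permutation test p = 0.1, and -0.23 and p = 0.2 without control replicate 2). Among the higher genes it was Ccp110 (0.10, and -0.05 without control replicate 2), which was also the most abundant with Poc1b and Plk4. Plk4 was at 6.51 FPKM in control replicate 2 and at 2.46 to 4.02 FPKM elsewhere, and without that library Cep63 had a higher mean (3.47 against 2.96 FPKM). Of 29 intraflagellar transport genes, which primary cilia use too, all 29 were tested and 0 were called. Without control replicate 2 only Ift81 was called lower (-0.44), as with scaling to the neuron genes (-0.51). The log2 difference of Ift81 was -0.22 in the 6 libraries and -0.06 without SMA replicate 2. Kif17 (0.33, and 0.31 without control replicate 2) and Ift52 (-0.19, and -0.10) had the smallest p in each direction in the 6 libraries. Kif17 was called at 0.44 without SMA replicate 2. Kifap3, Kif3a and Ift46 were the most abundant. Of 9 paralogs of the 10 genes, 6 were tested and 0 were called, with Dynlrb1 and Gmnn having the smallest p and Foxj3 and Foxj2 next to Dynlrb1 in level.

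In the 5 axonemal and assembly lists together the median log2 difference was 0.10 over 68 genes, 0.02 without control replicate 2 and -0.10 with scaling to the neuron genes, beside 0.04, 0.00163 and -0.23 over all genes.

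Several other ependymal markers are also made in other tissues. Of 27 such genes, 19 were tested, 0 were lower and 1 was higher, Fam216b (2.91, 2.36 and 2.53 FPKM in control and 3.26, 3.54 and 3.40 FPKM in SMA replicates 1 to 3; log2 difference 0.29, 0.24 without control replicate 2 and 0.05 with scaling to the neuron genes). The smallest p of the lower genes was that of Cfap70 (-0.43, and -0.47 without control replicate 2). Without control replicate 2 only Mlf1 was called, lower (-0.50), as with scaling to the neuron genes (-0.53). The log2 difference of Mlf1 was -0.35 in the 6 libraries and -0.17 without control replicate 1, and it was not called in either. Cd24a, Tppp3 (35.0 to 64.1 FPKM) and Rarres2 were the most abundant. Rarres2 was at 101 FPKM in control replicate 2 and at 1.69 to 3.23 FPKM elsewhere. Calml4 was at 10.9 FPKM there and at 2.01 to 2.78 FPKM elsewhere, and Cd24a at 187 FPKM and 67.4 to 80.3 FPKM. Dnaic1 of the outer arm was at 14.8 FPKM there and at 1.15 to 2.53 FPKM elsewhere. These 4 genes were high in the library with the hepatocyte transcripts, while as deposited none of the 10 cilia genes had its highest value there.

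Airway markers were at or near 0 outside control replicate 2. Of 12 airway genes, 10 were listed. Scgb3a2 and Nkx2-1 were listed in no library and count as 0. The listed values of Scgb1a1, Sftpc and Bpifa1 were 0.502 FPKM or less. Cyp2f2, the most abundant, was at 16.7 FPKM in control replicate 2 and at 0.162 FPKM or less elsewhere. The airway list summed to 17.7 FPKM in control replicate 2 and to 0.157 to 0.503 FPKM elsewhere. Of 10 choroid plexus genes, 9 were listed and Otx2 was not, so that it counts as 0. Ttr, the most abundant, was at 1303 FPKM in control replicate 2 and at 1.89 to 4.94 FPKM elsewhere. The choroid plexus list summed to 1355 FPKM there and to 8.99 to 19.5 FPKM elsewhere. Cyp2f2 and Ttr thus made up most of the sums of their lists in control replicate 2, the library with the hepatocyte transcripts. Which tissue these transcripts came from was not tested. With or without control replicate 2, 0 of the 4 choroid plexus genes tested were called.

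Neighbours of the ependymal cell at the central canal were listed in all libraries. Neurons that contact the cerebrospinal fluid express Pkd2l1, at 3.06, 2.06 and 1.76 FPKM in the controls against 2.54, 2.59 and 3.29 FPKM in the SMA libraries. Of 8 genes on that list 7 were tested, 0 were lower and 1 was higher. This was Sst, a neuropeptide that many other spinal neurons make, at 90.0, 50.2 and 75.2 FPKM in the controls against 104, 99.6 and 113 FPKM in the SMA libraries (log2 difference 0.58, Benjamini-Hochberg adjusted p = 0.683 in limma, 0.35 without control replicate 2, where it was again the 1 gene called, and 0.27 with scaling to the neuron genes, where no gene of the list was called). Gata2 had the smallest p of the lower genes, and Tal1, also an erythroid factor, was at 13.7 FPKM in control replicate 2 and at 1.95 to 3.50 FPKM elsewhere. Of 8 floor plate genes 6 were tested and 0 were called, with Spon1, Ntn1 and Lmx1b the most abundant and Foxa2 the lower gene with the smallest p. Of 12 astrocyte and radial glia genes, all 12 were tested, 0 were lower and 1 was higher, Aldoc (log2 difference 0.48, 0.29 without control replicate 2, and 0.16 and no longer called with scaling to the neuron genes). Without that library 3 genes of that list were lower, Fabp7, Aqp4 and S100b, and Aldoc was again higher. The same 3 were lower with scaling to the neuron genes. The floor plate list summed to 68.1, 51.8 and 63.4 FPKM in the controls against 69.9, 69.2 and 69.0 FPKM in the SMA libraries. Of 18 neuron genes 0 were called, all 18 having a log2 difference above 0, and without control replicate 2 the calls were 2 lower and 3 higher, and with scaling to these genes 1 lower. Of 10 oligodendrocyte lineage genes 0 were called, with 3 lower without that library and 4 lower with scaling to the neuron genes.

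The genes differed in how alike they were over the libraries. Pearson's r of log2(FPKM + 1) over the 6 libraries was 0.95 for Dnah9 and Spag6l, 0.92 for Dnah5 and Dnah9 and 0.91 for Dnah5 and Spag6l. Tmem212 stood apart, with r below 0 to each of the other 7 genes tested, from -0.61 with Foxj1 to -0.16 with Hydin. Over all 28 pairs of the 8 genes the median r was 0.42, with 20 above 0. Over 5 libraries, without control replicate 2, the median was 0.41, also with 20 above 0. These values describe 6 libraries that share their depth and makeup across all genes, and no p is given.

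**Figure D5:**
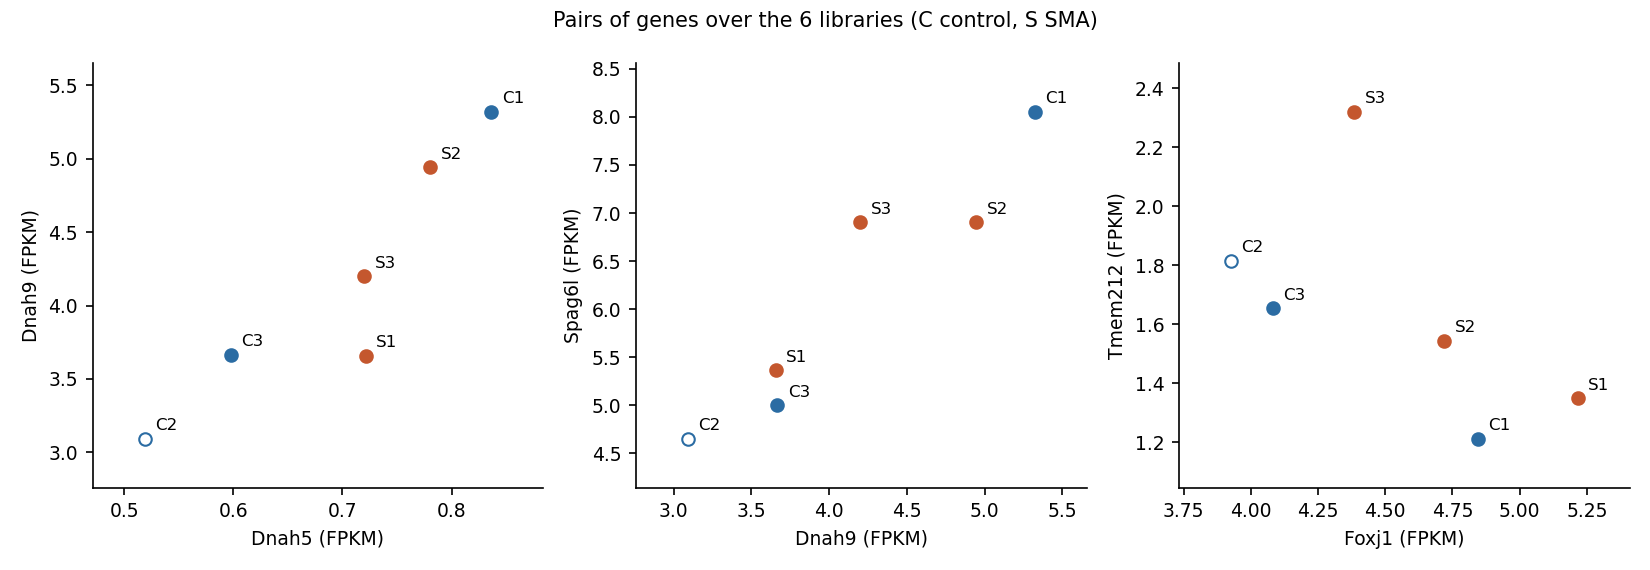
Levels (FPKM) of 3 pairs of genes in the 6 libraries, control in blue with control replicate 2 open and SMA in orange. Dnah5 and Dnah9 (r = 0.92) and Dnah9 and Spag6l (r = 0.95) increase together from control replicate 2 to control replicate 1, and Foxj1 and Tmem212 (r = -0.61) do not.

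Genes whose level over the libraries was most like the mean of the 10 were Zfp84 (r = 0.994), Ccdc160 (0.993), Polr2b (0.993), Syncrip (0.991) and Gm37611 (0.989), of 17088 genes compared over 6 libraries. They were chosen for the highest r, and no r expected by chance was computed. Zfp84, for example, stood at 5.53, 4.21 and 4.22 FPKM in the controls against 4.86, 5.04 and 5.13 FPKM in the SMA libraries. Control replicate 1 was highest and the other controls lowest.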

How the data were processed

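FPKM of 6 spinal cord libraries were used as deposited. The authors computed them with cufflinks after hisat2, from strand-specific libraries depleted of ribosomal RNA. The submitters' processing notes name HISAT2, Cufflinks and mm10, with versions not given in the sources used here. Unlisted genes count as 0 FPKM. The limma fit (version 3.58.1, R 4.3.3; lmFit, eBayes with trend) used log2(FPKM + 1) where the mean reached 0.5 FPKM, and Benjamini-Hochberg adjustment covered every gene fitted. Summaries and figures used Python 3.11.15, pandas 2.3.3 and numpy 2.4.6. The DESeq test of the methods needs read counts and could not be run on FPKM. The procedure was tested on simulated data. Positions and transcripts are from GENCODE M21 and promoters from RefSeq. Relative depth came from the commonest between-library ratio of values below 0.15 FPKM. It was 1.16, 1.08 and 1.04 in the controls and 1, 1.01 and 1.00 under SMA.

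The rule for named genes took all 10 genes, Smn1, paralogs, the 5 genes most like the mean of the 10, and from each other list the 3 genes with the highest mean FPKM and the gene with the smallest p in each direction. For the doublet, oligodendrocyte, neuron, hepatocyte, erythroid, airway and choroid plexus lists the text gives counts and only some of these genes. Outside the rule, and after their values were seen, Dnah2, Dnaaf3, Cep63, Ift81, Mlf1, Calml4, Nme5, Cfap221, Foxn4, Scgb1a1, Bpifa1, Aqp4 and S100b were named. The members and lists were chosen with earlier results of these data known. Alternatives were a pseudocount of 0.1, no filter or a minimum mean of 1 FPKM, 4 other scalings, robust eBayes, a block for the replicate number, and leaving out each library.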

Additional observations from a re-analysis of the deposited data

How the results depend on the processing

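No alternative gave any of the 8 tested genes an adjusted p under 0.05, the smallest over 16 alternatives being 0.465 (limma, Benjamini-Hochberg). Ccdc153 and Mcidas were fitted only with no filter, with an adjusted p of 0.737 and 0.823. Of the 124 log2 differences of the 8 tested genes 105 kept their sign and 19 did not. With no filter, the number of the 10 genes higher at an unadjusted p under 0.05 was 1, Ccdc153. Leaving out each library gave 0 to 2 genes at an adjusted p under 0.05 (limma, Benjamini-Hochberg) among all genes, the 2 being Snora74a and Rpph1 without control replicate 2. With scaling to the neuron genes and without that library it was 1, Snora74a.

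With scaling to the neuron genes, the median log2 difference was -0.137. Values were -0.138 for Foxj1, -0.115 for Dynlrb2, -0.136 for Tmem212, -0.0499 for Dnah5, -0.172 for Dnah9, -0.152 for Spag6l, -0.0318 for Hydin, -0.00216 for Rfx3, -0.203 for Ccp110 and -0.0203 for Ccdc114. Leaving out control replicate 2 as well gave -0.0752 for Dnah9, -0.0301 for Spag6l, -0.0788 for Ccp110 and 0.102 for Dnaic1, while Foxj1, Dynlrb2, Tmem212 and Dnah5 were above 0 again and the median was 0.00944. Quantile normalization gave 0.0552 for Pifo.

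Leaving out each library gave a median of 0.0356 to 0.160. Ranges that crossed 0 were -0.0158 to 0.133 for Dynlrb2, -0.0597 to 0.190 for Tmem212, -0.137 to 0.0944 for Pifo, -0.0512 to 0.262 for Dnah9, -0.00352 to 0.336 for Spag6l, -0.0504 to 0.214 for Ccp110, -1.31 to 0.128 for Dnaic1, -0.236 to 0.0171 for Dnali1, -0.203 to 0.101 for Rsph3a, -0.147 to 0.0388 for Ruvbl1 and -0.199 to 0.0136 for Smn1.

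Libraries with the same replicate number did not deviate together (r = -0.0370, 0.0161 and 0.0766 over genes). The deviations were taken from group means, and that of the controls includes control replicate 2. These values therefore cannot settle whether the numbers pair the libraries. With the replicate block the median was 0.0862, which the balanced design fixes at the value without it. There 0 genes had an adjusted p under 0.05 (limma, Benjamini-Hochberg), and unadjusted calls over all genes were 303 lower and 356 higher in place of 409 and 581.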
